A study of Mus musculus with 31 samples.

Results

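Glial reaction and nerve injury genes are 10 mouse genes whose transcripts rise when glial cells or axons are damaged: Lcn2, Serpina3n, Cd44, Vim, Timp1, Socs3, Ccl2, Atf3, Gap43 and Sprr1a. They were taken as every probe set annotated to these symbols, which gave 17 probe sets of the 45101 on the array, and 10 of the 18193 genes that the array names by 1 symbol. Cd44 had 4 probe sets, Vim and Socs3 had 3 each, and the other 7 genes had 1 each. The question was whether any of the 31 Affymetrix arrays, or any group of them, carried an injury or reactive glia pattern.

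The labels describe CD4+ T cells sorted from spleen and lymph node of mice with a bicistronic Foxp3/EGFP gene, in which EGFP reports the regulatory T cell factor Foxp3. Conventional T (3 arrays) were native EGFP- cells and natural Treg (4 arrays) were native EGFP+ cells. Natural Foxp3delta (2 arrays) were EGFP+ precursors from heterozygous Foxp3deltaEGFP females. Activated T (4 arrays) were EGFP- cells given anti-CD3 and anti-CD28 antibodies without TGF-beta. Activated natural Treg (3 arrays) were EGFP+ cells given both antibodies with TGF-beta. Induced Treg (5 arrays) were EGFP- cells given both antibodies and TGF-beta for 3 days and then sorted as EGFP+. Failed induced Treg (3 arrays) stayed EGFP- in those cultures, and induced Foxp3delta (3 arrays) came from mutant mice by the same treatment. IL-2 induced Treg and IL-2 induced Foxp3delta (2 arrays each) were induced cells kept for 1 more week in IL-2 at 100 units per ml. The labels give no animal age and do not say whether arrays of a group came from separate animals or cultures, so each p-value rests on array to array spread alone, which may be technical.

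The RNA on the arrays did not read as T cells. All 6 measured T cell markers (Cd3e, Cd3d, Cd3g, Cd2, Cd4 and Cd28) had a mean percentile below the middle of the array, with Cd4 at a deposited intensity of 19.8 ± 3.84 (SD, n = 31). Markers of nervous tissue were among the brightest probe sets: Gfap, the astrocyte intermediate filament, at 5150 ± 1568, Mbp, a myelin protein, at 19985 ± 3247, and Snap25, a synaptic vesicle fusion protein, at 10352 ± 2736. The group names below are therefore the labels of the arrays, and not a statement of the cells on them. In such mixed tissue, fewer cells of a type and less RNA per cell cannot be told apart.

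In the nervous system, damage makes astrocytes and microglia reactive. Reactive astrocytes raise intermediate filaments, acute phase proteins and matrix receptors, and cytokines of the interleukin 6 family drive part of this through the transcription factor STAT3, which Socs3 feeds back on. Injured neurons switch on a regeneration program in which Atf3 is an early transcription factor and Gap43 and Sprr1a are growth cone and cytoskeletal proteins. Lcn2 and Serpina3n are used as markers of reactive astrocytes because they are low in healthy tissue and rise strongly after injury or inflammation.

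Promoters of 3 inducible members are shown with their matches to 3 motifs that were searched, 1 for STAT factors, 1 for AP-1 factors and 1 for factors that answer to cyclic AMP. They are the 250 bases before the RefSeq transcription start on GRCm38.p6, written on the gene's strand, with motif matches in capitals. RefSeq promoter entries matched 8 of the 10 members. Socs3 (chr11:117969367-117969616, minus strand) holds 1 STAT motif, TTCNNNGAA, with 145 bases between the match and the start.
Socs3: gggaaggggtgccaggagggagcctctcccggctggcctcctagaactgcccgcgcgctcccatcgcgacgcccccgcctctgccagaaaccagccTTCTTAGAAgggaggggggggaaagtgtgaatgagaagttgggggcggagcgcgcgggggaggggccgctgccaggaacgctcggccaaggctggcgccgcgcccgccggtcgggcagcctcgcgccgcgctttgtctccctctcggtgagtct
Atf3 (chr1:191183334-191183583, minus strand) holds 1 cyclic AMP response element core, ACGTCA, with 2 bases between the match and the start.
Atf3: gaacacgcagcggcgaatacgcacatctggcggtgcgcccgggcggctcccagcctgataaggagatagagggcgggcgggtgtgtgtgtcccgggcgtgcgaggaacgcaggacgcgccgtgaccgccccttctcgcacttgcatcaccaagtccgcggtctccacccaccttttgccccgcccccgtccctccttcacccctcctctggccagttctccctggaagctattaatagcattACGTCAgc
Sprr1a (chr3:92485882-92486131, minus strand) holds 2 AP-1 motifs, TGANTCA, with 139 and 109 bases between the matches and the start.
Sprr1a: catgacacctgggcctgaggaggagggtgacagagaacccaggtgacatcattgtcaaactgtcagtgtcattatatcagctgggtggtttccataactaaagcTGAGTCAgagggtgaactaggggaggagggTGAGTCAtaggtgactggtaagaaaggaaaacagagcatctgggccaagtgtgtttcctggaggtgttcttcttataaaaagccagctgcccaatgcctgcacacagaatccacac
Both strands were searched. Timp1 also held the ACGTCA core, on the other strand, and is not printed. The promoters of Lcn2, Serpina3n, Cd44 and Vim held no match to any of the motifs and are not printed. Of 32851 mouse promoter windows of this length, 7.02% held the STAT motif, 6.75% the AP-1 motif and 6.47% the ACGTCA core, so these matches are a description and not evidence of binding.

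The members split into a bright part and a dim part. Levels are given as deposited intensity on a linear scale and as the percentile within an array, the share of the 45037 non-control probe sets with a lower value. Brightness also depends on the probes, so a percentile is a place on the array and not an amount of RNA. Where a gene had several probe sets, the one with the highest mean is described first. The median of the 10 percentiles was 51.4, with 5 genes above 50 and 2 above 90. A set of 27 bacterial control probe sets with no transcript added read 8.54 at the median, and their 95th percentile ran from 9.17 to 18.7 over the arrays.

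**Figure D1:**
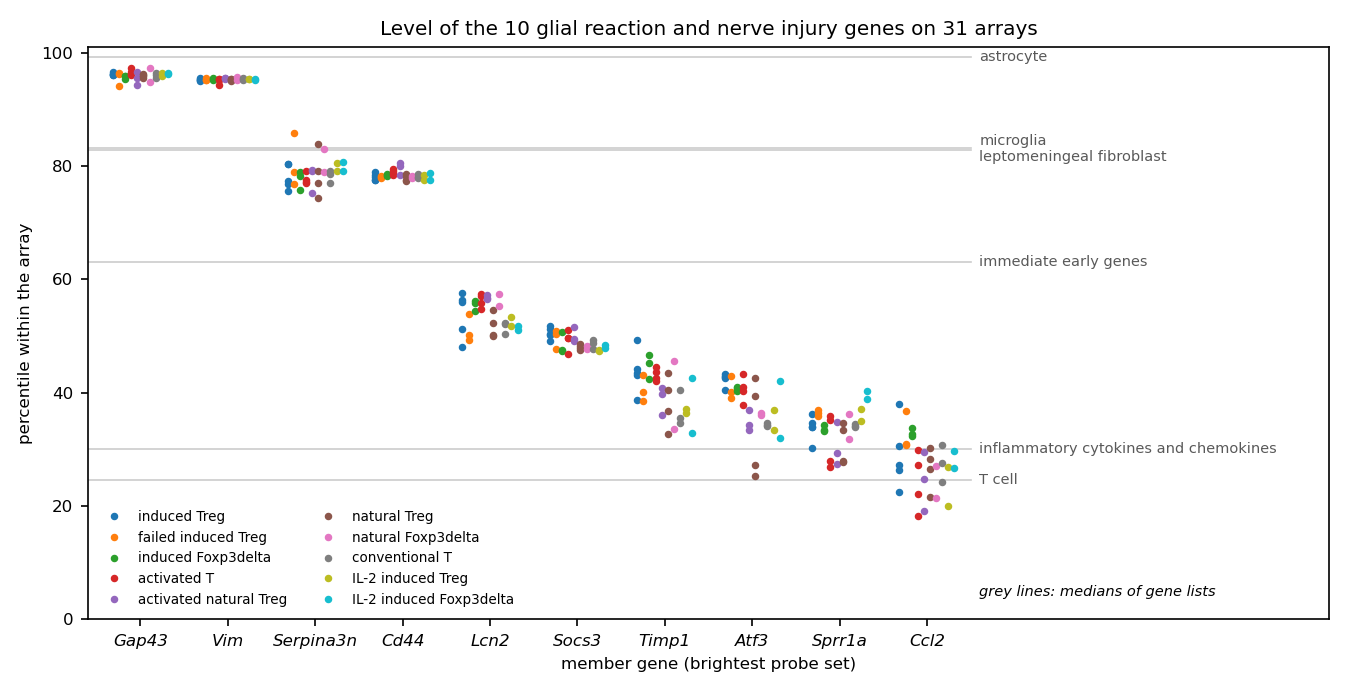
Percentile within the array (vertical axis) of the brightest probe set of each of the 10 genes (horizontal axis) on 31 arrays, with points coloured by label group and grey lines at the median percentile of 6 gene lists. Gap43 and Vim lie above 94 on every array, Serpina3n and Cd44 between 74.3 and 85.8, and the other 6 genes below 58.

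Among the astrocyte members, Vim, an intermediate filament of astrocytes, vessels and meninges, was bright and nearly level. Its brightest probe set read 805 to 2237 over the 31 arrays as deposited, with a mean percentile of 95.3 and a range of 94.2 to 95.6. The other Vim probe sets stood at mean percentiles of 91.4 and 89.8. Serpina3n, a secreted serine protease inhibitor, had the widest range of percentiles among the 4 bright members. Its deposited intensity was 276 ± 72.7 (SD, n = 31), its percentile 74.3 to 85.8. The highest array was failed induced Treg 3, whose quantile normalised intensity of 461 stood against 276 and 238 on the other arrays of that label. Natural Treg 2 was the second highest at 393, against 279, 200 and 240 on the other natural Treg arrays. The highest values sat on single arrays of different labels, and the label accounted for 20.7% of its variance, below the 30% that 10 groups of 31 arrays take at random.

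Cd44, the hyaluronan receptor of reactive astrocytes and immune cells, was steady at its brightest probe set, with a deposited intensity of 264 ± 55 and a percentile of 77.4 to 80.6. Its other probe sets had mean percentiles of 71.4, 61.1 and 5.45. The dimmest, 1443265_at, was above the 95th percentile of the control probe sets on 0 of 31 arrays and carries no measurable signal here. Lcn2, an iron carrier protein induced in reactive astrocytes, stood at the middle of the array: 49.9 ± 12 as deposited, percentile 48.1 to 57.5. Timp1, an inhibitor of matrix metalloproteinases, read 25.0 ± 7.83 with a percentile of 32.7 to 49.3.

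Both signalling members were dim. The brightest Socs3 probe set read 37.6 ± 8.03 with a percentile of 46.8 to 51.8, and the other Socs3 probe sets had mean percentiles of 43.9 and 23.4. The last of these, 1456212_x_at, cleared the control level on 20 of 31 arrays. Ccl2, the chemokine that draws monocytes, was the dimmest gene at 15.2 ± 3.56 with a percentile of 18.1 to 37.9, above the control level on 25 of 31 arrays.

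The neuronal members did not stand together. Gap43, which intact adult neurons also express, was the brightest of the 10 at 1734 ± 504, with a percentile of 94.2 to 97.3. Atf3 read 22.2 ± 6.01, with a percentile of 25.2 to 43.3. Sprr1a read 18.5 ± 3.81, with a percentile of 26.9 to 40.3. Gap43 was lowest on activated natural Treg 1 and failed induced Treg 3, at quantile normalised intensities of 1215 and 1179, and highest on activated T 2 and natural Foxp3delta 2, at 2410 and 2398. These are 4 single arrays of 4 labels, and other arrays of the same labels lay between them.

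To compare the labels, arrays were quantile normalised and log2(intensity + 16) was fitted with 1 mean per label in limma. The added 16 understates fold changes of dim probe sets such as Atf3, Sprr1a and Ccl2. Over the 10 labels, 0 of 17 member probe sets passed limma's moderated F test at an adjusted p under 0.05, while 7.31% of all probe sets did. At an unadjusted p under 0.05 it was 7 of 17, against 23.7% of all probe sets. The smallest adjusted p values were 0.0603 for Lcn2, 0.0660 for Socs3 1416576_at and 0.0899 for Socs3 1456212_x_at. The count was 7 on values as deposited, where 28.7% of all probe sets passed, and 6 with arrays scaled to their medians, where 20.6% did. Lcn2 passed, with 1 to 2 members called, when dim probe sets were filtered out, when 1 probe set a gene was kept or with replicate number as a block. It also passed, again with 1 to 2 called, when induced Treg 1, induced Treg 5 or failed induced Treg 2 was left out. Gap43 had 0.814, Serpina3n 0.861 and the brightest Vim probe set 0.812.

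Group means were set in order for the brightest probe set of each gene. Lcn2 ran from 42.7 ± 6.49 (quantile normalised intensity, SD, n = 3) on failed induced Treg to 60.4 ± 1.5 (n = 3) on activated natural Treg, a ratio of 1.41. Timp1 ran from 20.5 ± 0.406 on IL-2 induced Treg (n = 2) to 29.7 ± 3.25 on induced Foxp3delta (n = 3), a ratio of 1.45. Atf3 ran from 18.7 ± 0.199 on conventional T (n = 3) to 26.4 ± 1.33 on induced Treg (n = 5), a ratio of 1.41. Sprr1a ran from 16.5 ± 2.21 on activated natural Treg (n = 3) to 23.1 ± 1.03 on IL-2 induced Foxp3delta (n = 2), a ratio of 1.40. The ratio was 1.34 for Ccl2, 1.28 for Serpina3n, 1.25 for Gap43, 1.2 for Socs3, 1.13 for Cd44 and 1.1 for Vim. The dimmer Socs3 probe sets had wider ranges, with ratios of 1.87 for 1416576_at, highest on activated natural Treg, and 1.65 for 1456212_x_at. In the order of the 10 labels, the arrays of all 9 neighbouring pairs overlapped for 8 of the 10 genes. For Socs3 the exception was IL-2 induced Treg and its neighbour natural Foxp3delta. For Sprr1a the order broke after conventional T and after failed induced Treg. Neighbours in such an order are the closest label means by construction. The overlap was not counted over all probe sets, so it describes the members and does not set them apart.

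**Figure D2:**
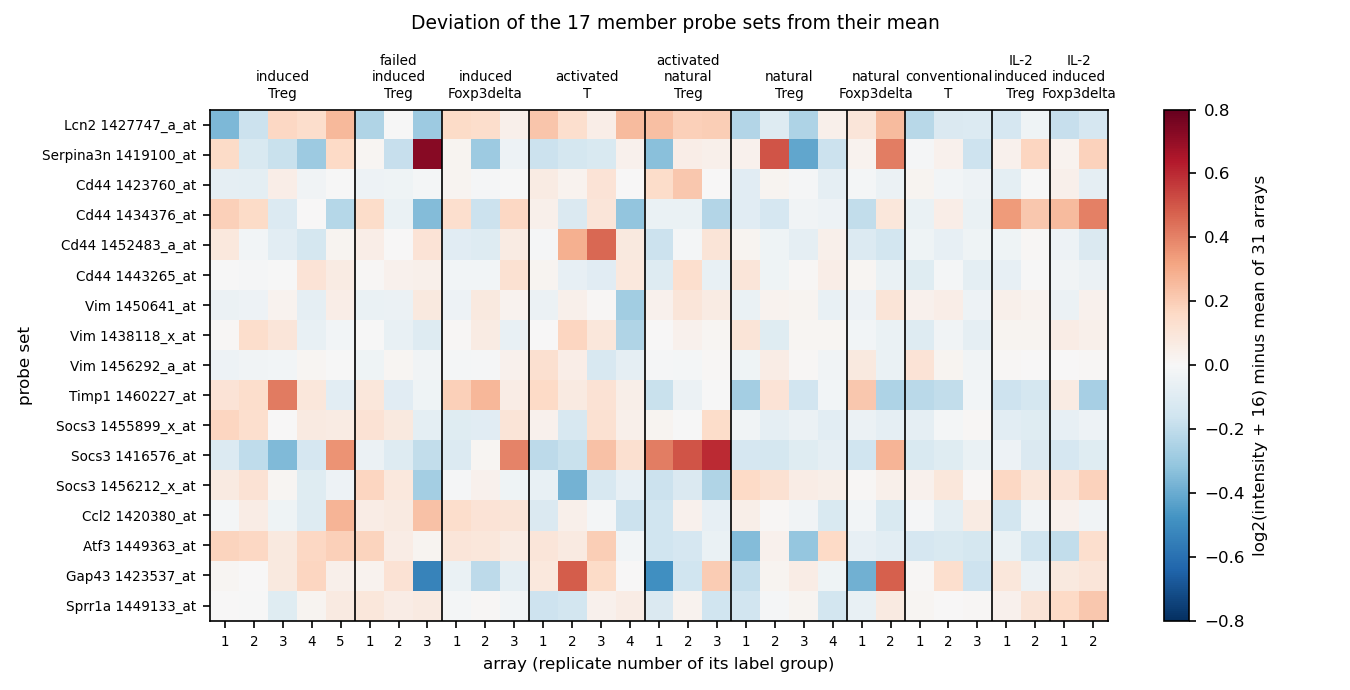
Deviation of each of the 17 member probe sets (rows) from its mean over 31 arrays (columns, grouped by label, numbered by replicate), in log2 units of quantile normalised intensity plus 16. Serpina3n on failed induced Treg 3 is the darkest red cell, followed by Socs3 1416576_at on activated natural Treg 3, and no column is red throughout.

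No array was high in the members together. The array with the most of the 10 genes among its 3 highest values was natural Foxp3delta 2, with 4. Induced Treg 5 had 3 and was the highest array for Lcn2 and Ccl2. Failed induced Treg 3 was the only array with 2 genes above the mean plus 2 SD, Serpina3n and Ccl2, and it had the lowest Gap43. The median percentile of the 10 genes ran from 48.4 to 54.1 over the arrays, lowest on failed induced Treg 3 and highest on activated natural Treg 3.

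Arrays also fell into 3 sets by technical measures that use no member: median intensity, 99th percentile, and how bright the hybridisation control cre was relative to bioB. The sets held 15, 8 and 8 arrays. Set 1 held all conventional T, natural Treg and IL-2 arrays, and set 3 held all activated natural Treg arrays and 3 of the 4 activated T arrays. Failed induced Treg 3 lay in set 3 and the other failed induced Treg arrays in set 1. It had the highest 99th percentile of all arrays, 8223, and the highest log2 ratio of cre to bioB, 6.32. The part of these measures in its member values was not tested. The set accounted for 60.8% of the variance of Lcn2, 69.2% of that of Socs3 1456212_x_at and 17% at the median of all probe sets, where chance gives 6.67%. Lcn2 spanned 35.6 to 52.1 (quantile normalised intensity) on the 15 arrays of set 1, 51.9 to 63.0 on set 2 and 38.0 to 62.8 on set 3. Socs3 1416576_at spanned 23.1 to 27.8 on set 1, 19.3 to 43.3 on set 2 and 23.4 to 52.3 on set 3. On set 1 alone, the moderated F test over its labels called 2 of 17 member probe sets, against 0.573% of all. This fit was added after seeing the data.

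In 8 of the 9 comparisons between labels, 0 of 17 member probe sets passed limma's test at an adjusted p under 0.05. Natural Treg minus conventional T gave log2 differences of -0.08 to 0.10, with 0 members and 2.41% of all probe sets at an unadjusted p under 0.05 and 0% of all probe sets called. All 7 of these arrays lay in set 1. Natural Foxp3delta minus conventional T called 0.0577% of all probe sets. Its only member at an unadjusted p under 0.05 was Lcn2, at 0.32 (adjusted p = 0.299), against 11.9% of all. The natural Foxp3delta arrays lay in sets 2 and 3, so set and label cannot be told apart in this comparison. Induced Treg minus failed induced Treg and induced Treg minus induced Foxp3delta called 0% of all probe sets in each case, with 0 and 1 members at an unadjusted p under 0.05, against 4.65% and 3.18% of all. Induced Treg minus activated T called 0.0422% of all probe sets and had 2 members at an unadjusted p under 0.05, against 9.84% of all. IL-2 induced Treg minus IL-2 induced Foxp3delta called 0% and had 0 members at an unadjusted p under 0.05, against 2.82% of all.

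Activated T minus conventional T, which compares labels with and without antibody activation, called 3.11% of all probe sets and 0 members. At an unadjusted p under 0.05 there were 5 members, against 18.7% of all probe sets. Lcn2 read 61.2, 56.5, 52.8 and 62.8 on activated T and 40.7, 45.1 and 45.3 on conventional T (quantile normalised intensity), so the groups did not overlap, as for 17.3% of all probe sets. Its log2 difference was 0.31 with an adjusted p of 0.0984. The smallest adjusted p was that of Cd44 1452483_a_at, which differed by 0.25 (0.0857). Timp1 differed by 0.24 (0.226), Atf3 by 0.22 (0.183) and Socs3 1456212_x_at by -0.20 (0.157), at unadjusted p only. Atf3 read 24.7, 23.9, 27.6 and 21.4 on activated T and 18.6, 18.9 and 18.5 on conventional T. These labels shared no array set. Among markers of other cells, Pecam1 of endothelium was lower by 0.61 in this comparison. The median difference of the 3 measured endothelial markers was 0.20, in the other direction. The T cell marker Cd3e was higher by 0.81, where the median of the 6 measured T cell markers was 0.14. The part of these markers in the member differences was not tested.

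IL-2 induced Treg minus induced Treg, which compares labels with and without culture in IL-2, called 1.21% of all probe sets and 0 members. It had 4 members at an unadjusted p under 0.05, against 13.3% of all. Timp1 differed by -0.29 (adjusted p = 0.275), Atf3 by -0.26 (0.214), Cd44 1434376_at by 0.27 (0.339) and the brightest Socs3 probe set by -0.18 (0.184). Socs3 read 34.5 and 34.2 on IL-2 induced Treg and 44.3, 42.9, 37.6, 40.4 and 40.2 on induced Treg, without overlap, as for 20.8% of all probe sets. On set 1 alone, with 2 arrays a label, the same Socs3 difference was -0.26 with an adjusted p of 0.0217, where 1.19% of all probe sets were called. The other Socs3 probe sets differed there by 0.086 (1416576_at, adjusted p = 0.439) and 0.039 (1456212_x_at, 0.804). No direction for the gene is given here.

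**Figure D3:**
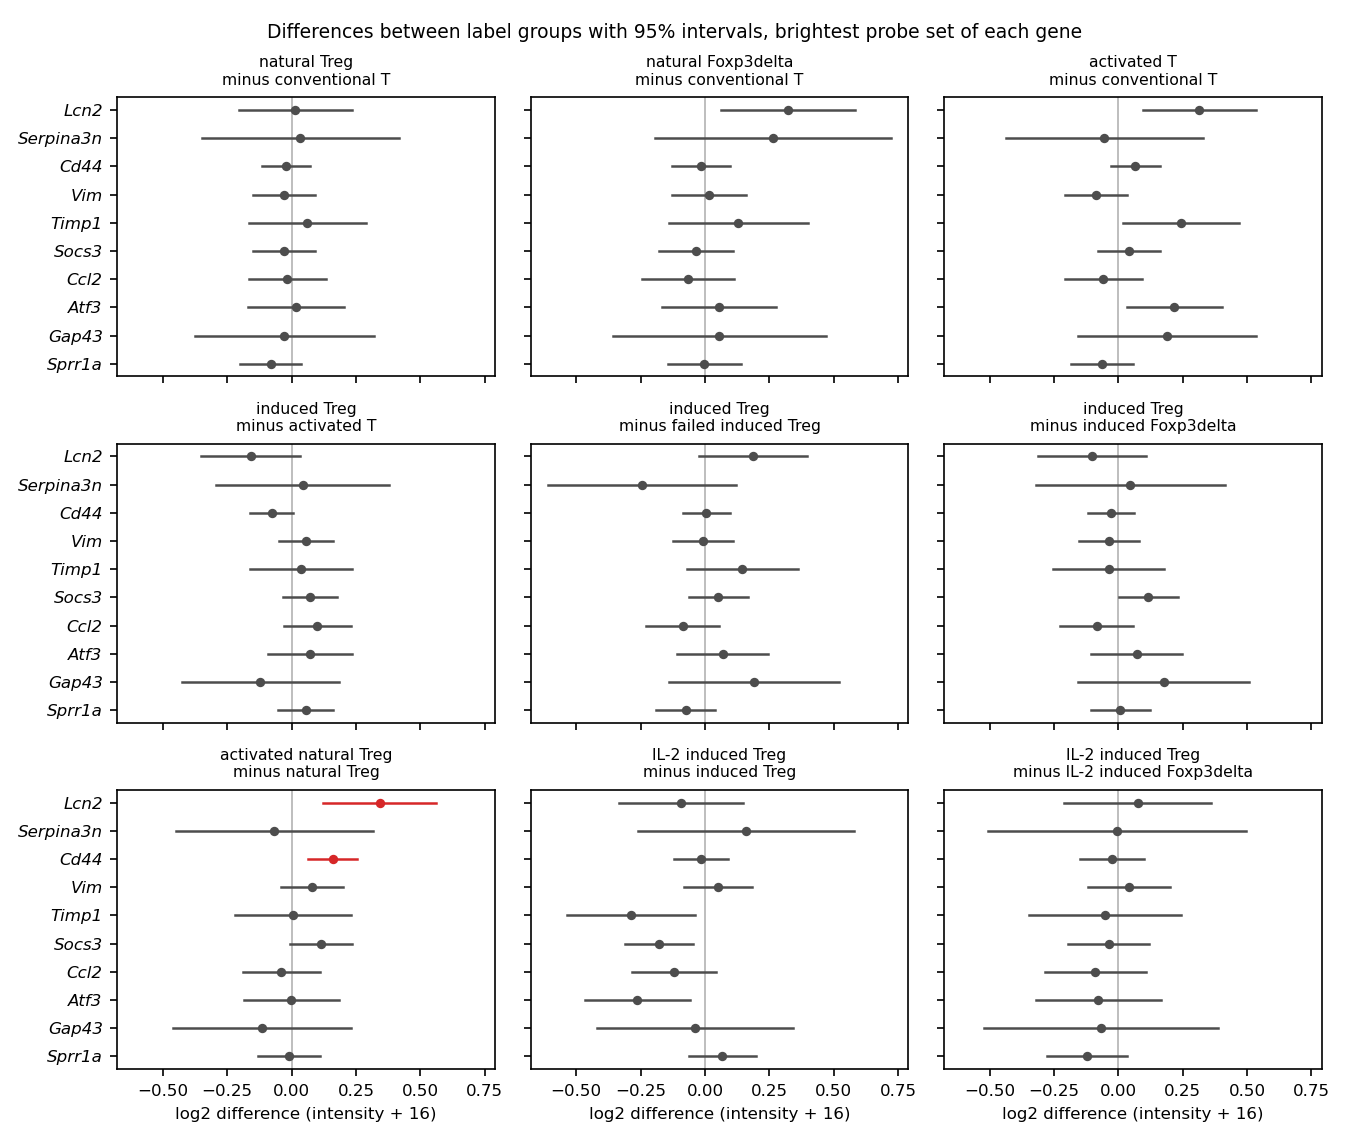
Log2 difference of quantile normalised intensity plus 16 (horizontal axis, points) with 95% intervals (lines) for the brightest probe set of each of the 10 genes (vertical axis) in the 9 comparisons between labels; red marks an adjusted p under 0.05. Only Lcn2 and Cd44 in activated natural Treg minus natural Treg are red.

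Activated natural Treg minus natural Treg was the 1 comparison in which members were called: 4 of 17 probe sets, 3 higher and 1 lower, against 9.71% of all probe sets called, 4.98% higher and 4.73% lower. Socs3 1416576_at read 43.9, 47.8 and 52.3 on activated natural Treg and 25.1, 24.9, 26.1 and 26.8 on natural Treg (quantile normalised intensity). The groups did not overlap, as for 23.6% of all probe sets, and limma gave a log2 difference of 0.62 ± 0.13 (SE), a 95% interval of 0.34 to 0.89 and an adjusted p of 0.00676. Lcn2 read 62.1, 59.4 and 59.7 against 40.3, 45.7, 39.7 and 52.1, with no overlap, a difference of 0.34 ± 0.11 and an adjusted p of 0.0420. Cd44 1423760_at read 296, 310 and 266 against 248, 270, 263 and 252. These overlapped, and the difference of 0.16 ± 0.05 had an adjusted p of 0.0299.

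The 3 Socs3 probe sets did not move as 1 gene. Socs3 1456212_x_at was lower on activated natural Treg, at 10.2, 11.2 and 9.01 against 16.9, 16.1, 14.7 and 14.5, with a log2 difference of -0.27 ± 0.08 and an adjusted p of 0.0326. The brightest Socs3 probe set, 1455899_x_at, read 38.4, 37.6 and 43.5 against 36.5, 35.1, 36.0 and 34.6 and was not called. So 1 Socs3 probe set was higher, 1 lower and 1 not called in the same arrays, and no direction for the gene is given.

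**Figure D4:**
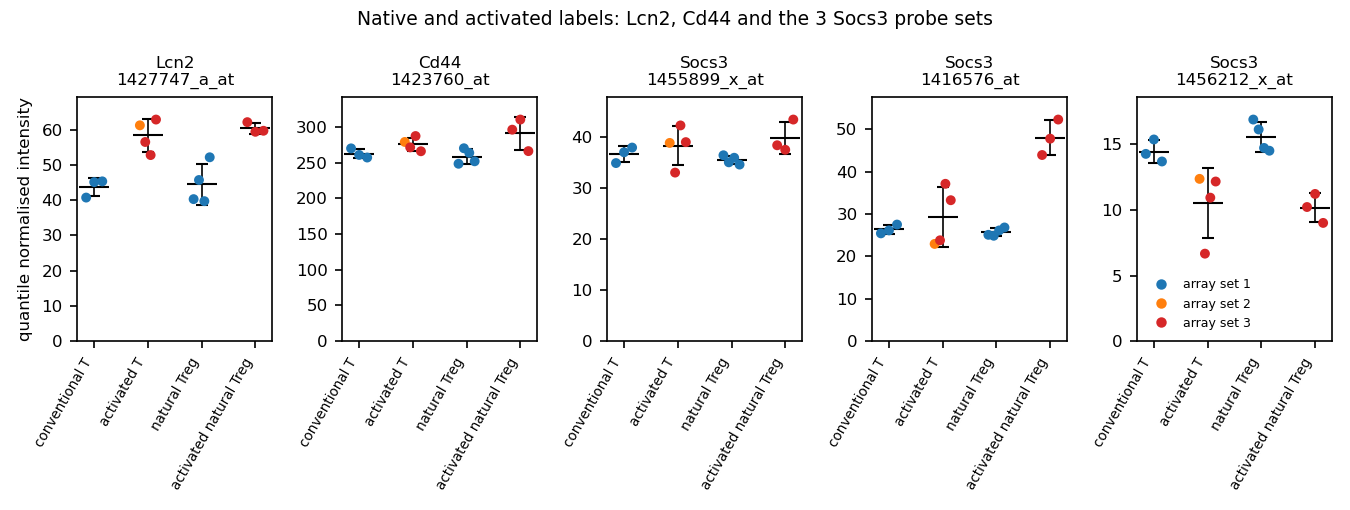
Quantile normalised intensity (vertical axis, from 0) of Lcn2, Cd44 and the 3 Socs3 probe sets on the conventional T, activated T, natural Treg and activated natural Treg arrays; points are arrays coloured by technical array set, bars are the mean and SD. Natural Treg arrays are all of set 1 and activated natural Treg arrays all of set 3, and the Socs3 panels differ in direction.

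Other measures moved with this comparison. The 2 labels shared no array set, so set and label cannot be told apart within them. The ratio of the 3' to the 5' actin probe sets, a sign of RNA integrity, was 2.05 to 2.13 on activated natural Treg and 1.73 to 1.84 on natural Treg. Of 7 measured housekeeping genes, 4 were called lower, Actb at -0.41, Pgk1 at -0.34, Tbp at -0.32 and Tubb5 at -0.26. Actb, Pgk1 and Tubb5 turned positive when arrays were scaled to their medians. The 6 T cell markers summed to 109 to 142 (quantile normalised intensity) on activated natural Treg and 91.8 to 99.5 on natural Treg, and 2 of the 6 were called higher, Cd3e at 0.59 and Cd3g at 0.16. None of these markers was listed at 0. C1qb, a complement subunit of microglia, was lower by 0.30 (adjusted p = 0.0174), while the 6 microglia markers summed to 3484 to 3787 on activated natural Treg and 3416 to 3807 on natural Treg, with overlap. The part of these measures in the member differences was not tested. With array set as a block, in a fit over all 31 arrays, 0 members and 0.0289% of all probe sets were called. In that fit Socs3 1416576_at differed by 0.46 (adjusted p = 0.426), Lcn2 by 0.21 (0.652) and Cd44 by 0.12 (0.562). Socs3 1456212_x_at differed by 0.033 (0.944). Since the 2 labels shared no set, that fit joins them only through labels whose arrays lay in different sets. A difference that it does not call may still exist. On values as deposited, where the median of all probe sets differed by -0.33, Lcn2 differed by -0.22 and Cd44 by -0.46. Leaving out 1 of these 7 arrays left 1 called member (without activated natural Treg 1 or natural Treg 1), 2 (without activated natural Treg 2 or 3, or natural Treg 2 or 3) or 3 (without natural Treg 4). Socs3 1416576_at was called each time, and Lcn2 only without natural Treg 4.

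Differences of differences between labels were also tested. The first set activated minus native natural Treg labels against activated T minus conventional T. The second set IL-2 culture minus no IL-2 culture in the induced Treg labels against the same in the induced Foxp3delta labels. Neither called a member, with smallest adjusted p values of 0.519 and 1.00, and of all probe sets they called 1 and 0. Activated natural Treg received TGF-beta and activated T did not, so cell label and TGF-beta cannot be told apart in the first. In the second, all induced Foxp3delta arrays lay in set 2 and all IL-2 arrays in set 1, so set and label cannot be fully told apart. The widest 95% interval of a member reached 0.34 to 0.50 to either side, depending on the comparison. Over the 90 differences of the 10 brightest probe sets, intervals ended between -0.61 and 0.72, both at Serpina3n. Larger differences in log2(intensity + 16) lay outside these intervals.

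Wider gene lists placed the 10 members among their pathways. None of the calls given below for single genes in activated natural Treg minus natural Treg, or in activated T minus conventional T, held with array set as a block. The smallest adjusted p there was 0.320, for Dusp1, and that fit called 0.0289% of all probe sets in each comparison. The labels compared shared no array set, so that fit joins them only through labels whose arrays lay in different sets. A difference that it does not call may still exist. The F test over the 10 labels called 7.31% of all probe sets without the block and 0.351% with it. For single genes named below, its adjusted p values are those without the block. Without the block, activated natural Treg minus natural Treg called 9.71% and activated T minus conventional T 3.11%. Of 25 genes that reactive astrocytes raise in injury models, all were on the array, with a median percentile of 62.0. Gfap stood at a percentile of 99.1 and Hspb1, a small heat shock protein, at 95.7. Steap4, a metalloreductase induced by inflammation, stood at 25.2 and Cxcl10, an interferon induced chemokine, at 36.3. The F test called 2 of the 25, B3gnt5 (adjusted p = 0.0210) and Clcf1 (adjusted p = 0.0494), and Gfap had an adjusted p of 0.733. In activated natural Treg minus natural Treg, 4 rose, Cd44, Srgn, Lcn2 and Clcf1, and Gbp2 fell by 0.17, with a list median of 0.06 against -0.00014 for all probe sets. With array set as a block Srgn differed by 0.033 (adjusted p = 0.942), Clcf1 by 0.25 (0.414) and Gbp2 by -0.072 (0.812).

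Of 23 regeneration genes of injured neurons, the median percentile was 80.5. Stmn2, a growth cone protein, and Basp1, a relative of Gap43 in function, stood at 99.3 and 98.5, and adult neurons express both without injury. Jun, the partner of Atf3 in the injury response, stood at 83.2 with an F test adjusted p of 0.680, and Sox11 at 65.5. The F test called 1 of the 23, Gal (adjusted p = 0.0313), the neuropeptide galanin. Gal was higher in activated natural Treg than in natural Treg by 0.62 ± 0.11 (adjusted p = 0.00235). On values as deposited that difference was -0.037, or 0.30 relative to the median of all probe sets. With array set as a block it was 0.36 (adjusted p = 0.435).

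Of 18 measured genes of the interleukin 6 family and STAT3 pathway, the median percentile was 50.03. The ligands were dim, with Il6 at a percentile of 8.53, Lif at 29.7 and Osm at 32.2. The receptor chains Il6st and Lifr stood at 91.0 and 92.5 and Stat3 at 91.2. The F test called Jak1 (adjusted p = 0.0332) and Clcf1. In activated natural Treg minus natural Treg, Jak1, the kinase of the pathway, was lower by 0.91 ± 0.20 (adjusted p = 0.00753) and Il11 lower by 0.49, while Osm was higher by 0.35 and Clcf1 by 0.22. In activated T minus conventional T, Pim1, a kinase induced by STAT factors, was lower by 0.24 (adjusted p = 0.0427). With array set as a block the Jak1 difference was 0.061 (adjusted p = 0.944), that of Il11 -0.076 (0.921) and that of Osm 0.077 (0.902).

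Of 18 inflammatory cytokines and chemokines, 15 stood below a percentile of 50, with a median of 30.0. Il1b stood at 33.4, Tnf at 42.2 and Cxcl2 at 3.54. The F test called Ccl4 (adjusted p = 0.00797) and Il1rn (adjusted p = 0.0377), and Ccl4 was higher in activated natural Treg than in natural Treg by 0.42 ± 0.09, and by 0.22 (adjusted p = 0.555) with array set as a block. Icam1, an adhesion molecule, was lower by 0.14 (adjusted p = 0.0447) in that comparison. The highest array for the list median was failed induced Treg 3, the array with the highest Serpina3n. Of 11 immediate early genes, whose median percentile was 63.0, the F test called 0. At an unadjusted p under 0.05 there were 6, against 23.7% of all probe sets. In activated natural Treg minus natural Treg, 3 of the 11 were called, against 9.71% of all probe sets. Junb and Fos, subunits of AP-1, were lower by 0.52 and 0.27, and Dusp1, a phosphatase of MAP kinases, was higher by 0.44. In activated T minus conventional T, Nr4a1, a nuclear receptor, was higher by 0.29. With array set as a block these were -0.30, 0.071, 0.58 and 0.13. Of 10 intermediate filament genes, whose median percentile was 96.9, it called Des, the muscle filament desmin (adjusted p = 0.0448). Of 18 measured Cd44 ligand and matrix genes, whose median percentile was 73.8, the F test called 0. At an unadjusted p under 0.05 there were 3, against 23.7% of all probe sets.

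Markers of cells that take part in injury were read beside the members. The 6 microglia markers had a median percentile of 83.2, and the F test called 1, Cx3cr1, the fractalkine receptor (adjusted p = 0.00410). S100a8 and S100a9, neutrophil calcium binding proteins, read 339 ± 80.4 and 551 ± 137 as deposited, and Ngp, a neutrophil granule protein, 252 ± 69.3. Ccr2, the Ccl2 receptor of monocytes, read 26.0 ± 6.68 and Mpo 16.8 ± 3.71. The F test called 0 of these 5 blood cell markers, with adjusted p values of at least 0.196. At an unadjusted p under 0.05 there was 1, Mpo, against 23.7% of all probe sets. The 4 leptomeningeal fibroblast markers had a median percentile of 82.8, and the array with the highest list median was again failed induced Treg 3. That array was also the highest for the list median of the 4 neuron markers.

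The genes most like the 3 brightest members over the 31 arrays shared normalisation and array set with them, so their correlations are descriptions. For Gap43 they were Smg8, Hspa2 and Dele1, with Pearson r of 0.67, 0.65 and 0.64 among 11474 genes compared. On the 15 arrays of set 1 these were 0.64, 0.25 and 0.31. For Vim they were Rbm43, Lemd3 and Sem1, with r of 0.70, 0.67 and 0.60 and, on set 1, 0.49, 0.73 and 0.83. For Serpina3n they were Faap24, Lig1 and Lcmt1, with r of 0.68, 0.66 and 0.66 and, on set 1, 0.38, 0.08 and 0.36. None of the 9 genes is on the reactive astrocyte or regeneration lists.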

How the data were processed

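One table held the submitters' probe set values of 31 mouse Affymetrix arrays hybridised with biotinylated cRNA, per the labels' protocols. The deposited values are intensity on a linear scale. The summarisation, background correction and scaling behind them are not given in the sources used here. Genes were named from the platform annotation: 34945 of 45037 non-control probe sets had 1 symbol, 932 had several and 9160 had none. Every non-control probe set was tested, with no filter, since the members were defined as all probe sets of 10 symbols.

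Arrays were quantile normalised. log2(intensity + 16) was fitted with limma 3.58.1 (R 4.3.3), 1 mean per label group over all 31 arrays, without an intensity trend. A moderated F test and 9 contrasts were adjusted by Benjamini-Hochberg over all 45037 probe sets and called at an adjusted p under 0.05. The code was tested on simulated data. The number of arrays limits the precision. Correlations between arrays ran from 0.981 to 0.997, and no pair held the same values. Technical sets came from Ward clustering of log2 median, log2 99th percentile and log2 cre over bioB.

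The members and lists were chosen with earlier results of these data known. Named are all members, up to 4 called genes of each wider list or else the one with the smallest p, and for the 3 brightest members the 3 genes with the highest r; other list genes were chosen after their values were seen. Alternatives were array medians, deposited values, pseudocounts 1 and 64, a filter, gene means, 1 probe set a gene, an intensity trend, array set or replicate number as a block, each array left out and, added after seeing the data, sets 1 and 2 alone. Promoters are RefSeq's on GRCm38.p6.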

Additional observations from a re-analysis of the deposited data

Results flagged for a closer look

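Atf3 on induced Treg replicate 3 had a quantile normalised intensity of 24.0, below the 26.7 to 27.4 of the other 4 induced Treg arrays. The gap was 0.790 of the group's whole range. Its deposited intensity there was 25.8. This was 1 of 51 groups of member values examined for a sample far from the others, and chance sets apart about 1 in 20.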

How the results depend on the processing

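The number of member probe sets called over the 10 labels, 0 in the reported fit, was 7 on values as deposited, 6 with array medians, 2 (Lcn2 and Socs3 1416576_at) with probe sets above the table median on at least 2 arrays, 1 (Lcn2) with 1 probe set a gene, and 2 on set 1 alone. The same fits called 28.7%, 20.6%, 12.4%, 13.6% and 0.573% of all probe sets tested in them, against 7.31% in the reported fit. It ran from 0 to 2 when each array was left out in turn: Lcn2 was called without induced Treg 1, induced Treg 5 or failed induced Treg 2, Socs3 1416576_at without induced Treg 5, induced Foxp3delta 3 or natural Foxp3delta 1, Socs3 1456212_x_at without failed induced Treg 3 and Atf3 without natural Treg 4. Activated T minus conventional T called 2 as deposited and 9 with array medians, where the median of all probe sets differed by -0.24 and 0.13 and 18.6% and 23.0% of all were called, and 0 to 1 with an array left out (Lcn2 without induced Treg 1, Cd44 1452483_a_at without activated T 1). Induced Treg minus activated T called 12 as deposited, where that median was 0.32 and 54.7% of all were called, and 0 to 1 with an array left out (the same Cd44 probe set without activated T 1). IL-2 induced Treg minus induced Treg called 1 on set 1 alone, with 1.19% of all.

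Activated natural Treg minus natural Treg, with 4 called, gave 7 as deposited, 2 with the filter, 1 with gene means, 2 with 1 probe set a gene, 2 with an intensity trend, 0 with array set as a block and 1 to 4 with an array left out. The shares of all probe sets called were 46.0%, 15.6%, 10.8%, 16.7% and 9.55% in the first 5 of these, and 13 probe sets in all with the block. As deposited, where the median of all probe sets fell by 0.33, Lcn2 differed by -0.22 and Cd44 by -0.46, or by 0.11 and -0.12 relative to that median. In the same comparison Srgn was -0.27, Clcf1 -0.14, Dusp1 -0.11, Gal -0.037 and Cd3g -0.015, each above that median. Nr4a1 in activated T minus conventional T was -0.22. With array medians, Tubb5 was 0.55, Pgk1 0.52 and Actb 0.50. With gene means, Socs3 1456212_x_at became 0.15 (the mean of the 3 Socs3 probe sets) and Pgk1 0.12. With array set as a block, Socs3 1456212_x_at and Pgk1 were 0.033 and 0.034, Cd3e -0.029, Fos 0.071 and Jak1 0.061. The cause of these changes was not tested, except that gene means join probe sets that differed in direction.

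Labels carry replicate numbers, but same-numbered arrays did not deviate together: over 114 pairs the mean correlation of deviations was 0.02, from -0.28 to 0.35, and 10 exceeded 0.1. The replicate block gave 2 called over the 10 labels (Lcn2 and Socs3 1416576_at) and 3 in activated natural Treg minus natural Treg, with 8.19% and 11.3% of all probe sets called. Both pseudocounts changed no count by over 1.5 times.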
